A study of Mus musculus with 6 samples.

Results

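In D544R cells, trimethylation of lysine 79 on histone H3 (H3K79me3) was set against dimethylation of the same residue (H3K79me2), gene by gene. The members were the 9545 of 24012 genes of the deposited table with a summed count of 200 or more in the 2 D544R libraries, and no other selection was made. D544R denotes mouse bone marrow hematopoietic progenitors transduced with a retroviral MLL-AF9, a fusion protein found in leukemia, bearing the D544R exchange, an aspartate replaced by an arginine. The comparison cells carried the same retroviral fusion with the D546R exchange or as WT, so every group expressed an MLL-AF9 protein and none was an untransduced control. Each of the 3 genotypes gave 1 chromatin immunoprecipitation sequencing (ChIP-seq) library per mark, 6 in all. The H3K79me3 antibody came from Diagenode and the H3K79me2 antibody from Abcam, so mark and antibody cannot be told apart.

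DOT1L, the only well-established H3K79 methyltransferase in mammals, adds methyl groups to this lysine in the body of the nucleosome, and its yeast counterpart Dot1 adds them step by step, so that dimethylated lysine is the substrate for trimethylation. Both marks are known to lie over transcribed genes, above all over their 5′ parts. AF9 binds DOT1L, and MLL fusions that contain AF9 are known to bring the enzyme to HoxA genes and Meis1, which keep progenitors self-renewing.

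The D544R libraries held 5207395 counts for H3K79me3 and 4287873 for H3K79me2, within the range of 3558329 to 6652571 over all 6. Members held 89.5% of the H3K79me3 counts and 89.3% of the H3K79me2 counts. Their median region, which includes 2 kb ahead of the transcription start and the whole transcribed part, was 50.8 kb long, against 7.71 kb for the 14467 genes under the minimum, so short genes are few here. The lowest member count was 24 in H3K79me3 and 22 in H3K79me2, and none was at 0. At a summed count of 200, just inside, 33 genes had a median log2 ratio of 0.16, and at 199, just outside, 26 genes also had 0.16. Of all members, 3703 (38.8%) overlapped another region and share reads with it.

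With 1 library per mark there was no error between cultures and no test. The table holds read counts over regions only, so a mark that is on fewer cells and a mark that is weaker in each cell cannot be told apart. Counts were divided by size factors of 1.11 for H3K79me3 and 0.899 for H3K79me2 (median of ratios), and a log2 ratio is the scaled H3K79me3 count over the scaled H3K79me2 count. Of the 4591 autosomal regions shorter than 5 kb, 16.2% had no H3K79me3 count and 2.44% had no H3K79me2 count. Those shares correspond to 8.12 reads per independent fragment in H3K79me3 and 3.26 in H3K79me2 if every such region could be reached. Intervals printed beside genes are 95% fragment intervals, in which counts were divided by these numbers, and they cover counting error only. A gene was called higher or lower when its ratio was at least 2-fold and its plain counting interval excluded no change.

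H3K79me3 was called higher than H3K79me2 at 725 of the 9545 genes (7.6%) and lower at 899 (9.42%). Asking that the wider fragment interval exclude no change left 724 (7.59%) and 895 (9.38%). Among the 2374 genes with 1000 or more counts, 72 (3.03%) were higher and 178 (7.5%) lower. The median log2 ratio was 0.04, with quartiles of -0.60 and 0.58 and a range of -3.21 to 2.87. H3K79me3 was the flatter of the 2 marks across genes. From the 5th to the 95th percentile its counts per kb spanned 2.78 to 16.2, a 5.82-fold range, while those of H3K79me2 spanned 1.83 to 21.8, an 11.9-fold range.

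**Figure D1:**
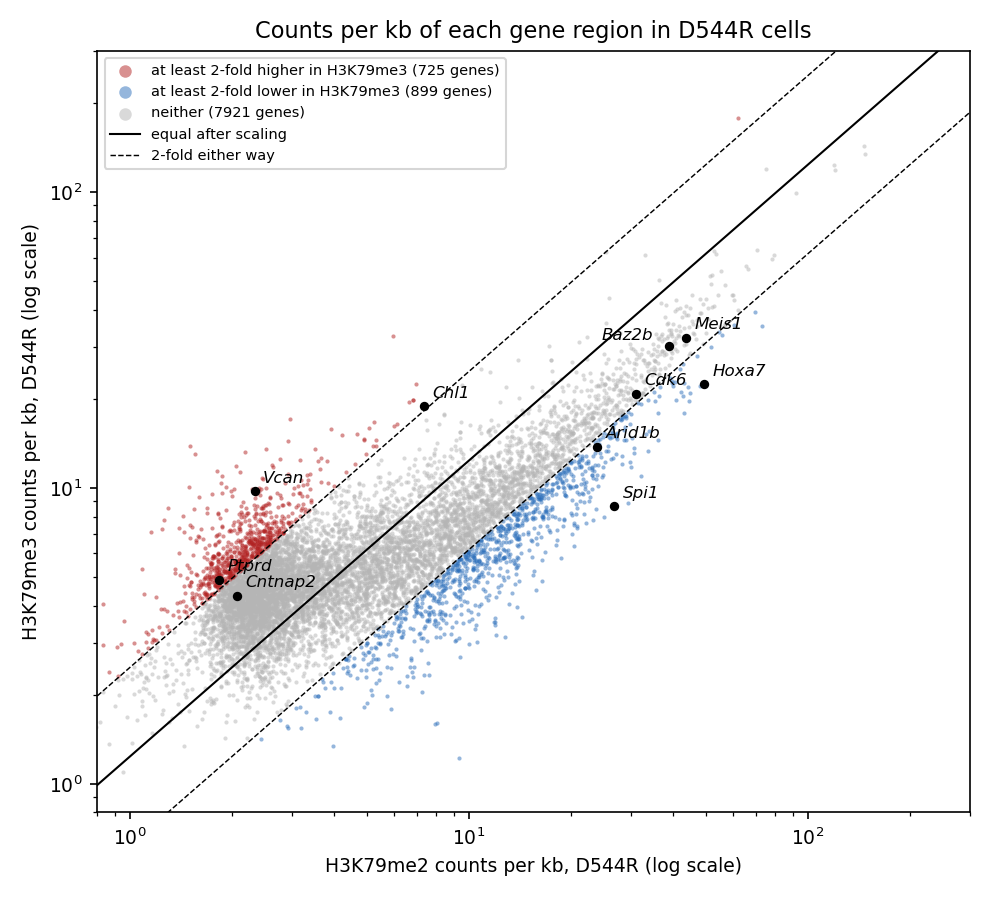
Each point is 1 of the 9545 gene regions, with H3K79me3 counts per kb in D544R on the vertical axis and H3K79me2 counts per kb in D544R on the horizontal axis, both log scales. Red points are the 725 genes at least 2-fold higher in H3K79me3 and lie mostly at low H3K79me2 density. Blue points are the 899 at least 2-fold lower and lie mostly to the right, and the solid line marks equal scaled counts.

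A scale inside each library came from 48 genes of other tissues that should be silent in blood cells. Over these the D544R libraries held 4.28 counts per kb in H3K79me3 and 2.31 in H3K79me2. Genes called lower in H3K79me3 had a median density of 1.39 times the silent genes in H3K79me3 and 5.2 times in H3K79me2. These medians lay above the silent level in both marks, though single genes such as Chd4 lay below it in H3K79me3 (0.437 times). Since the calls use the ratio of these same counts, the larger excess in H3K79me2 follows from the choice of genes. Genes called higher had a median of 1.46 times in H3K79me3 and 0.915 times in H3K79me2, so their median dimethylation lay near the silent level. When the silent genes were made the reference between libraries, the median of all members shifted by -0.58 (log2), and 87 genes were called higher and 3068 lower. The 2-fold calls are therefore relative to the bulk of genes, and the number and direction of the higher calls depend on that reference.

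Vcan headed the higher genes among those with 1000 or more counts. It encodes versican, a large proteoglycan of the extracellular matrix (NM_019389, mm9 chromosome 13, 89792914 to 89882117). It had 870 H3K79me3 and 208 H3K79me2 counts, a 3.38-fold higher scaled H3K79me3 count and a log2 ratio of 1.75 (1.30 to 2.23). Its H3K79me3 density was 2.28 times that of silent genes, and its H3K79me2 density was 1.01 times. The glycosyltransferase gene Mgat4c (NM_001162369, chromosome 10, 101619712 to 101854102) had 1408 H3K79me3 and 394 H3K79me2 counts, a log2 ratio of 1.53 (1.19 to 1.88). Prdm6, a regulator of smooth muscle genes, had 873 and 247 counts in the same order and a log2 ratio of 1.51 (1.08 to 1.96). Both carried H3K79me2 below the silent level, at 0.727 times for Mgat4c and 0.943 times for Prdm6.

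The other 9 of the 12 highest follow. The regions of the 12 ran from 89.2 kb (Vcan) to 323 kb (Lrfn5), lengths that the minimum of 1000 counts favours, and over all 725 higher genes the median region was 41.4 kb, against 50.8 kb for members. Fut9, a fucosyltransferase of the Lewis x antigen, stood at a log2 ratio of 1.44 and St8sia6, a sialyltransferase, at 1.39. Ros1, a receptor tyrosine kinase, stood at 1.37, and Lrp2, the kidney endocytic receptor megalin, at 1.34. Gpm6a (membrane glycoprotein), Syndig1 (synapse differentiation), Grm3 (metabotropic glutamate receptor) and Lrfn5 (synaptic adhesion) stood at 1.33, 1.27, 1.27 and 1.24. The mitochondrial acyl-CoA synthetase gene Acss3 stood at 1.28. In H3K79me2, 11 of the 12 lay below the density of the silent genes, and Vcan lay at it.

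At the lower end stood Pstpip1, an adaptor of the leukocyte cytoskeleton (NM_011193, chromosome 9, 55935782 to 55976697). It had 305 H3K79me3 and 774 H3K79me2 counts and a log2 ratio of -1.65 (-2.19 to -1.15). Klf13, a Krüppel-like transcription factor of blood and other tissues (NM_021366, chromosome 7, 71029236 to 71083801), had 392 H3K79me3 and 994 H3K79me2 counts and also a ratio of -1.65 (-2.12 to -1.21). Znrf1, a ubiquitin ligase gene, had 809 and 2024 counts in that order and a ratio of -1.63 (-1.95 to -1.32). All 3 were above silent genes in both marks. Their densities were 1.74, 1.68 and 2.11 times silent in H3K79me3 and 8.18, 7.88 and 9.76 times in H3K79me2.

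Among the remaining 9 of the 12 lowest, Vgll4, a cofactor of TEAD transcription factors, stood at -1.61, the fatty acid elongase Elovl5 at -1.58 and the RNA-binding protein gene Stau1 at -1.57. Tspan14, a tetraspanin, stood at -1.56, the endosomal sorting gene Ubap1 at -1.54 and Anp32a, a histone-binding acidic protein gene, at -1.53. The kinase Stk24 stood at -1.52, the galactosyltransferase B4galt1 at -1.47 and Cds2, an enzyme of phospholipid synthesis, at -1.45. Their H3K79me2 densities ran from 6.49 (Elovl5) to 9.73 (Stk24) times the silent level and their H3K79me3 densities from 1.45 (Elovl5) to 2.26 (Stk24) times.

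**Figure D2:**
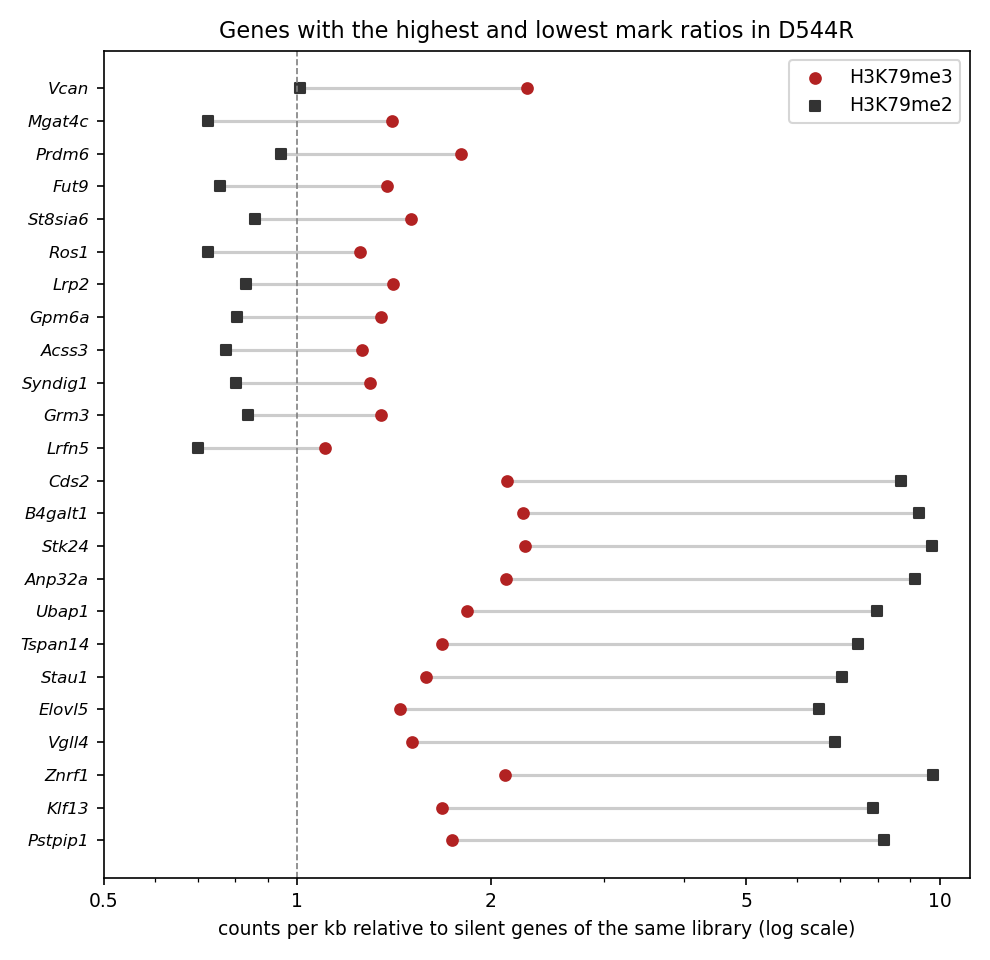
The 12 genes with the highest (upper rows) and the 12 with the lowest (lower rows) H3K79me3 to H3K79me2 ratio in D544R among genes with 1000 or more counts, on a log axis of counts per kb relative to silent genes of the same library. Red circles are H3K79me3, black squares H3K79me2 and the dashed line the silent level; in the upper rows H3K79me2 sits near or below the line, and in the lower rows both marks sit above it, H3K79me2 furthest (up to 9.76 for Znrf1).

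Base composition at the gene start is a feature that the choice of genes did not use. The 250 bases before the transcription start are shown, from RefSeq on GRCm38.p6 and in the direction of transcription, for the 3 highest and 3 lowest of these genes that had an entry. Capitals mark each CG dinucleotide, the site of DNA methylation in mammals. Vcan is on the minus strand at chr13:89742513-89742762, St8sia6 on the minus strand at chr2:13793521-13793770 and Ros1 on the minus strand at chr10:52195245-52195494. Pstpip1 is on the plus strand at chr9:56089726-56089975, Klf13 on the minus strand at chr7:63938916-63939165 and Vgll4 on the minus strand at chr6:114969204-114969453.
Vcan: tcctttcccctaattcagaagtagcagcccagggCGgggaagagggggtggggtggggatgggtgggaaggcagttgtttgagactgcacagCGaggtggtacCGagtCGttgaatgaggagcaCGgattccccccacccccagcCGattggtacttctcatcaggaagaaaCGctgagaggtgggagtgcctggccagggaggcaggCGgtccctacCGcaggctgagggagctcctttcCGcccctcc
St8sia6: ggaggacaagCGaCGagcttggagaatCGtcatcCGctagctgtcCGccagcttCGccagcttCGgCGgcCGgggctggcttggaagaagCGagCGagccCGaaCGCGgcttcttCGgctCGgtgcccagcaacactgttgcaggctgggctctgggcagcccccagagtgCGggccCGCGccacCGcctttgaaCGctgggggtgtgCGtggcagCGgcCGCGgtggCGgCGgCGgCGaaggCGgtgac
Ros1: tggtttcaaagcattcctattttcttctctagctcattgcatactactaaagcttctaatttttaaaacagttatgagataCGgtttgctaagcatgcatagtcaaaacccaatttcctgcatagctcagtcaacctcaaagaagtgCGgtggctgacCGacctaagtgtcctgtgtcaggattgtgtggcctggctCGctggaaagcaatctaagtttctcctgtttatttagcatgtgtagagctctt
Pstpip1: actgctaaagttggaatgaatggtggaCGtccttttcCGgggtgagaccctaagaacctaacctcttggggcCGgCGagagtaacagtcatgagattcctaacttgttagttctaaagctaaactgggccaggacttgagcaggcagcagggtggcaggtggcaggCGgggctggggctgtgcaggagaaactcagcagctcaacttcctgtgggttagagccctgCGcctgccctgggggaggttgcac
Klf13: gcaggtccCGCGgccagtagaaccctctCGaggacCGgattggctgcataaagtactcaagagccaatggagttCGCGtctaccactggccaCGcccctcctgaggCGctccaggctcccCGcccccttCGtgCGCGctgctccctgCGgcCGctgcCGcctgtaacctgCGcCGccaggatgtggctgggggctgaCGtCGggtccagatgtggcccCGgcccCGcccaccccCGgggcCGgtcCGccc
Vgll4: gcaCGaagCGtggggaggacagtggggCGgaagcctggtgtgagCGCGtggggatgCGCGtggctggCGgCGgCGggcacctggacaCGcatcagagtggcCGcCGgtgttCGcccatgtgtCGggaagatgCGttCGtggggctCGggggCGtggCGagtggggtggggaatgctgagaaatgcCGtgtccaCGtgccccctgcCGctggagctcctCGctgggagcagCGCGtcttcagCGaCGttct
In the higher group Vcan had 10 CG dinucleotides, St8sia6 30 and Ros1 4. In the lower group Pstpip1 had 6, Klf13 24 and Vgll4 28. The 6 sequences alone do not separate the groups, since St8sia6 is rich and Pstpip1 poor.

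Over all called genes the groups were further apart. The ratio of observed to expected CG over 250 bases before to 50 after the start had a median of 0.398 in 568 promoters of genes higher in H3K79me3 and 0.827 in 699 promoters of lower genes. It was 0.727 over 7528 members and 0.384 over all 32851 promoters of the RefSeq table. A ratio of 0.6 or more was found in 30.6% of higher and 80.5% of lower genes, against 64.2% of members and 35.8% of all promoters. Members with such CG-rich starts had a median log2 ratio of -0.25 (4836 genes), and those below it had 0.44 (2692 genes). These counts cover genes outside chromosome 18. There 7528 of 9206 members matched by symbol (81.8%), including 80.5% of higher and 80.7% of lower genes.

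CCGGAAG, the core of the motif bound by ETS transcription factors, was looked for on both strands. It was in 6.34% of the promoters of higher genes and 21.2% of those of lower genes, against 16.1% of members and 8.86% of all promoters. This motif holds a CG itself, so its share moves with CG content. The TATA box TATAAA, likewise on both strands, was in 17.6% of higher and 8.44% of lower genes, against 10.2% of members and 13.6% of all promoters. These are letter matches in a window of fixed length and not measured binding.

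The ratio followed how densely a gene carries both marks. To keep ranking and ratio apart, members were ranked by counts per kb in the 2 WT libraries, which share no reads with the D544R libraries, and split into deciles. From the thinnest to the densest decile, the median log2 ratio in D544R was 0.49, 0.53, 0.55, 0.54, 0.38, 0.07, -0.33, -0.63, -0.73 and -0.75. It was flat over the 4 thinnest deciles, decreased between the 4th and the 8th, and changed little after that. The thinnest decile had 137 higher and 6 lower calls among 955 genes, and the densest had 2 higher and 246 lower calls among 955 (25.8% lower). Of the 899 lower calls 840 (93.4%) lay in the densest 5 deciles, against 16.3% of the 725 higher calls. With silent genes as the reference the medians were -0.09 in the thinnest and -1.33 in the densest decile, so the sign at the thin end depends on the reference. The order of the 2 ends could not change, since the reference shifts every ratio by the same constant. With no minimum on the summed count the thinnest decile stood at -0.15 and the densest at -0.76. The sign at the thin end thus also depends on that minimum, and the order of the ends does not. The minimum was set on D544R counts, so genes thin in WT are members only where their D544R counts reach it. Among members of 10 to 20 kb in the thinnest 5 deciles (55 genes) the median was 1.02 in D544R and -0.80 in WT. The calls in the thin deciles are those of genes past the minimum, and its part in them was not tested.

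Both marks increased along this ranking, at different steepness. In the thinnest decile the median density was 0.804 times the silent genes in H3K79me3 and 0.91 times in H3K79me2. In the densest it was 3.62 times in H3K79me3 and 9.33 times in H3K79me2. Measured inside each library, trimethylation thus also marked the dense genes, with less contrast than dimethylation. A different background of the 2 antibodies and a different distribution of the 2 marks cannot be told apart, and input libraries were not used here.

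**Figure D3:**
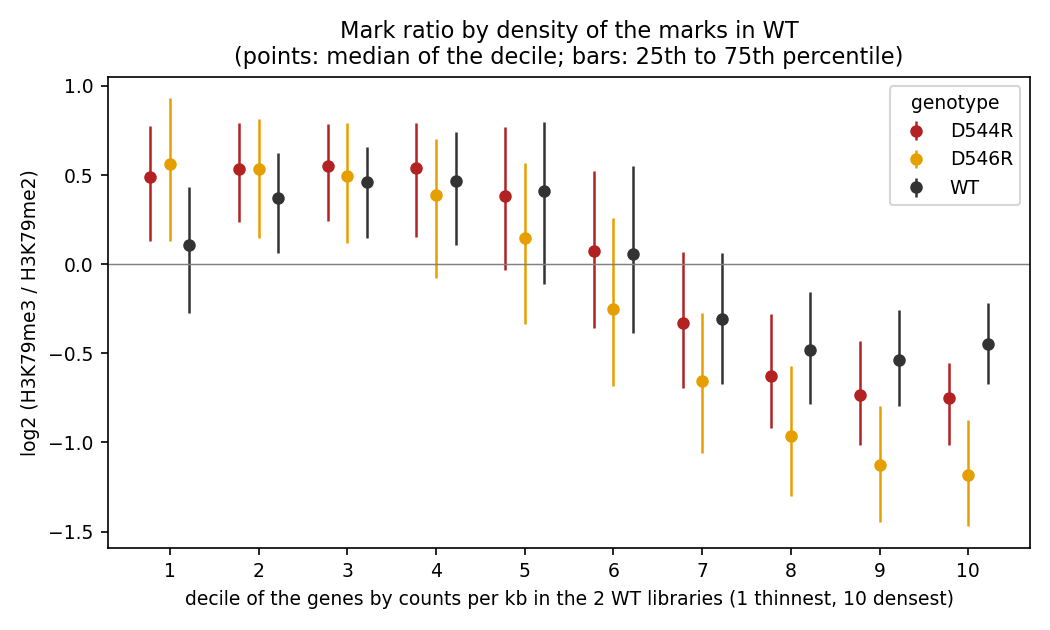
Median log2 ratio of H3K79me3 to H3K79me2 (vertical axis) in deciles of the 9545 genes ranked by counts per kb in the WT libraries (horizontal axis, thinnest to densest), for D544R (red), D546R (orange) and WT (black). Points are medians and bars span the 25th to 75th percentile of genes; D544R passes from 0.49 in the thinnest to -0.75 in the densest decile, and the WT ratios share reads with the ranking.

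From 10 kb upwards, longer genes had higher ratios over all members. A change of reference shifts all length classes alike and cannot alter the difference between them. The median log2 ratio was -0.58 for the 30 members under 5 kb, -0.66 for 868 of 10 to 20 kb, -0.14 for 3624 of 20 to 50 kb, 0.27 for 1379 of 100 to 200 kb and 0.67 for 302 of 400 kb or more. The value under 5 kb rests on genes that share reads, since only 4 of the 30 overlap no other region, and those 4 had a median of 0.47. Density separated genes within a length class too. Among genes of 20 to 50 kb the densest 5 deciles had a median of -0.54 (2116 genes) and the thinnest 5 deciles 0.50 (1508). Among genes of 100 to 200 kb the values were -0.42 (451 genes) and 0.50 (928). Short classes held mostly dense genes (813 of 868 at 10 to 20 kb) and long classes mostly thin ones (287 of 302 at 400 kb or more). In the thinnest 5 deciles there was no steady increase with length. The medians were 1.02 for 10 to 20 kb (55 genes), 0.41 for 50 to 100 kb and 0.68 for 400 kb or more. The 55 genes are members by their D544R counts and had a median of -0.80 in WT. The part of the minimum in their D544R value was not tested. In the densest 5 deciles the medians were -0.69, -0.54 and 0.08 (15 genes) for the same classes. The lowest chromosome median was -0.21 on chromosome 11 (623 genes), and the X chromosome stood at 0.32 (238 genes), against 0.00 for the same X-linked genes in WT.

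Almost all dense and well-counted genes were below 0. Of the 476 genes in the densest decile with 1000 or more counts, 472 had a negative log2 ratio. The 4 exceptions, named after their values were seen apart from Chl1, were Chl1, Sfi1, Rn45s and Ugp2. Chl1, a neural cell adhesion gene (NM_007697, chromosome 6, 103458869 to 103683029), had 4223 H3K79me3 and 1653 H3K79me2 counts and a log2 ratio of 1.05 (0.87 to 1.23). It stood at 4.40 times silent in H3K79me3 and 3.19 times in H3K79me2. In the other genotypes its log2 ratio was -0.76 in D546R (7090 and 5467 counts) and 0.12 in WT (6301 and 5922 counts), so the D544R ratio was the highest of the 3. Before scaling, the Chl1 counts of both marks were lowest in D544R. Sfi1 (0.58) and the ribosomal RNA gene Rn45s (0.37) hold sequence that is repeated in the genome, so their counts are uncertain. Ugp2, an enzyme of glycogen synthesis, stood at 0.14 (-0.22 to 0.50), an interval that includes no change.

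The HoxA cluster, the best-known target of MLL fusions, carried both marks densely and had more dimethylation relative to the bulk of genes. Of its 11 genes 4 reached 200 counts, with a median log2 ratio of -0.69. There were 0 higher and 1 lower call (25% lower, against 9.42% of all members). Median densities were 5.33 times silent in H3K79me3 and 16.3 times in H3K79me2. The median distance of these 4 from the median of their own density decile was 0.004, but single genes differed. The distance was -0.69 for Hoxa7, 0.02 for Hoxa9 and 0.29 for Hoxa10. Hoxa9, the leukemic partner of Meis1 (NM_001277238, chromosome 6, 52171095 to 52177369), had 282 H3K79me3 and 378 H3K79me2 counts. Its log2 ratio was -0.73 (-1.32 to -0.17), at 10.5 times silent in H3K79me3 and 26.1 times in H3K79me2. Hoxa7 (NM_010455, chromosome 6, 52163622 to 52168572) had 111 and 245 counts in that order and a ratio of -1.45 (-2.40 to -0.61), the only call of the cluster, in a region that overlaps 1 other. Hoxa10 had 271 and 302 counts and a ratio of -0.46 (-1.08 to 0.12), which includes no change, and its region overlaps 2 others. Hoxa3 stood at -0.64 (-1.10 to -0.21). The 28 genes of the HoxB, HoxC and HoxD clusters had no member, and their summed counts gave a log2 ratio of 0.56, close to the 0.58 of the silent genes.

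For Hoxa7, Hoxa9 and Hoxa10 the sign of the observed ratio differed between genotypes, which was not tested. In D546R they stood at 2.72, 0.89 and 1.06, where the H3K79me3 counts were 33, 143 and 120 and the H3K79me2 counts only 2, 35 and 26. At 18.6 reads per fragment in H3K79me3 and 4.78 in H3K79me2 of D546R, these counts stand for few independent fragments. In WT the 3 genes stood at -0.99, -0.59 and -0.67. The D544R and WT ratios of Hoxa7, Hoxa9 and Hoxa10 thus lay within 0.46 of each other.

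Outside HoxA, 23 of 25 listed targets of MLL fusions were members. Their median log2 ratio was -0.71, with 0 higher and 3 lower calls (13.0%, against 9.42% of all members), and 19 were below 0. The median distance of the 23 from the median of their own density decile was -0.10. Meis1 (NM_010789, chromosome 11, 18778430 to 18918972) had 4525 H3K79me3 and 6154 H3K79me2 counts and a ratio of -0.75 (-0.89 to -0.61). Its density was 7.52 times silent in H3K79me3 and 18.9 times in H3K79me2, among the strongest of the named genes in both. The cell cycle kinase gene Cdk6 had 3748 and 5599 counts in that order and a ratio of -0.89 (-1.04 to -0.74). Jmjd1c, a demethylase family gene, had 3605 and 5162 counts and a ratio of -0.83 (-0.98 to -0.67). These 3 lay near the median of the densest decile (-0.75), to which they belong.

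The 3 lower calls of this list were Myb, Arid1b and Runx1. Myb, a transcription factor of progenitor growth, had 368 H3K79me3 and 651 H3K79me2 counts and a ratio of -1.13 (-1.63 to -0.66). Arid1b, a subunit of the BAF chromatin remodeler, had 4884 and 8471 counts and a ratio of -1.10 (-1.23 to -0.97). Runx1, a master regulator of blood formation, had 1696 and 2927 counts and a ratio of -1.09 (-1.32 to -0.88). Not every target followed them. Mef2c stood at -0.39 (-0.62 to -0.15), the developmental regulator Eya1 at 0.07 (-0.18 to 0.32) and the homeobox cofactor Pbx3 at 0.62 (0.35 to 0.89). With silent genes as the reference they stood at -0.97, -0.51 and 0.04. The sign of Eya1 thus depends on the reference. The order of the genes could not change, since the reference shifts every ratio by the same constant. Pbx3 had 1642 H3K79me3 and 862 H3K79me2 counts in D544R, and its ratio was 0.30 in D546R and -0.38 in WT.

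Genes of DOT1L and of the elongation complexes it associates with gave 20 members of 26, with a median log2 ratio of -0.51. None was called higher and 1 lower (5.0%, below the 9.42% of all members), which was Ell, an elongation factor and itself a fusion partner of MLL (-1.20). Dot1l had 199 H3K79me3 and 283 H3K79me2 counts and a ratio of -0.81 (-1.53 to -0.15). Mllt3, the mouse gene of AF9, had 199 and 102 counts in that order and a ratio of 0.65 (-0.17 to 1.47), an interval that includes no change. Its density was near silent in both marks, at 1.21 times in H3K79me3 and 1.15 times in H3K79me2.

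All 39 chromatin regulators were members, 36 of them below 0, with a median log2 ratio of -0.77. The median distance of the 39 from the median of their own density decile was -0.10. There were 0 higher against 8 lower calls (20.5% lower, against 9.42% of all members). Among the 8 were the remodeler genes Chd4 (-1.72) and Smarca4 (-1.03), the demethylase genes Kdm2b (-1.20) and Kdm6a (-1.11), and the Polycomb-associated genes Bcor (-1.09) and Jarid2 (-1.02). The acetyltransferase gene Kat6a (-1.06) was also among them. Baz2b, a bromodomain gene with the most H3K79me2 counts of any gene in D544R, had 6863 H3K79me3 and 8857 H3K79me2 counts and a ratio of -0.68 (-0.79 to -0.56). The highest member was Smarcc1, a BAF subunit, at 0.43 (0.05 to 0.81). These and other list members beyond the highest and lowest were picked after their values were seen.

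Among myeloid transcription factors, 8 of 23 were members, with a median of -0.86. There were 1 higher call (12.5%, against 7.6% of all members) and 4 lower calls (50.0%, against 9.42%). The median distance of the 8 from the median of their own density decile was -0.12. Spi1, which encodes the myeloid master regulator PU.1 (NM_011355, chromosome 2, 90934953 to 90955913), had 182 H3K79me3 and 562 H3K79me2 counts and a ratio of -1.93 (-2.64 to -1.29). It stood at 2.03 times silent in H3K79me3 and 11.6 times in H3K79me2. The other 3 lower genes were Nfe2 (-1.29), the retinoic acid receptor gene Rara (-1.18) and Fli1 (-1.11). The higher call was Irf4, a factor of lymphoid and dendritic cells, with 266 H3K79me3 and 69 H3K79me2 counts and a ratio of 1.63 (0.81 to 2.50). Many factors of this list, among them Cebpa, Cebpe and Junb, have short regions and stayed under 200 counts.

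The labelled cell type was checked over whole marker lists. Summed over 21 blood progenitor genes, D544R had 7.30 H3K79me3 and 9.34 H3K79me2 counts per kb, above the 4.28 and 2.31 of silent genes. For 32 myeloid effector genes the sums were 6.47 and 6.53, for 16 erythroid and megakaryocyte genes 4.89 and 4.13, and for 12 mast cell and basophil genes 3.99 and 3.48. Lymphoid genes (21) had 4.70 and 2.14 and stromal and endothelial genes (15) had 3.96 and 2.33, near the silent level in both marks. Single progenitor markers differed. Ptprc (4.01 times silent in H3K79me3 and 8.32 times in H3K79me2), Lmo2 (2.42 and 8.17 times) and Myb (2.26 and 7.40 times) were dense. Kit (1.53 and 2.14 times) and Cd34 (1.78 and 1.27 times) were lower, and Flt3 was near silent (0.557 and 1.06 times). Other markers are not given here.

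Blood progenitor genes gave 15 members with a median log2 ratio of -0.35 and 1 higher call (6.67%, against 7.6% of all members). There were 3 lower calls, a larger share than the 9.42% of all members. The lower genes were Etv6, a repressor needed by blood stem cells (2833 H3K79me3 and 5671 H3K79me2 counts, -1.31, -1.48 to -1.14), Lmo2 (-1.17) and Myb, given above. The higher call was the surface marker gene Cd34, with 186 and 72 counts and a ratio of 1.06 (0.15 to 1.97). Myeloid effector genes gave 10 members, a median of -0.49, 0 higher and 3 lower calls (30.0%, against 9.42% of all members). They ran from Ms4a3 (-1.14), a gene of granulocyte and monocyte progenitors, to the Fc receptor gene Fcgr3 (0.91), which was not called. Erythroid and megakaryocyte genes had 4 members and mast cell and basophil genes 2, with medians of -0.08 for both and no call.

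Lymphoid genes lay on the other side. All 8 members of 21 were above 0, 6 of them also with silent genes as the reference, with a median log2 ratio of 0.87 and 2 higher calls (25%, against 7.6% of all members), Ebf1, a B cell factor (2224 H3K79me3 and 813 H3K79me2 counts, 1.14, 0.89 to 1.40), and the cytokine receptor gene Il7r (1.09). Of the 10 stromal and endothelial members 2 were called higher, Col1a2 (1.14) and Pdgfra (1.11), a larger share than the 7.6% of all members. Their list had a median of 0.56. That median was -0.02 with silent genes and -0.18 with olfactory receptor genes as the reference. H3K79me2 over these 2 lists was at 0.945 and 0.978 times the silent level, so the higher ratios were those of genes with no excess of dimethylation over silent genes.

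Of the lists of growth and division, MYC and ribosome assembly genes (17 members of 28) had a median log2 ratio of -0.82, with 13 below 0 and 0 higher against 6 lower calls (35.3% lower, against 9.42% of all members). The lowest was Bop1, an assembly factor of the large ribosomal subunit, with 58 H3K79me3 and 163 H3K79me2 counts and a ratio of -1.79 (-3.17 to -0.66). Nop58, of the box C/D small nucleolar particle, had 336 and 611 counts in that order and a ratio of -1.17 (-1.69 to -0.68). Dkc1, the pseudouridine synthase dyskerin, was highest at 0.84 (-0.13 to 1.80) and was not called.

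DNA replication and cell cycle genes (22 members of 40) had a median of -0.57, with 18 below 0 and 0 higher against 6 lower calls (27.3% lower, against 9.42% of all members). The median distance of its genes from the median of their own density decile was -0.08, and that of the MYC and ribosome assembly genes was -0.31. Those calls were the sliding clamp Pcna (-1.28), the E2F factors E2f3 (-1.27) and E2f2 (-1.11), the helicase subunit Mcm6 (-1.23), the checkpoint kinase Bub1b (-1.24) and the spindle motor Kif11 (-1.05). The list's median was -1.22 in D546R and -0.11 in WT. Housekeeping genes (15 of 28) had a median of -0.66. Of these 15 genes 3 were called lower, a larger share than the 9.42% of all members. The lowest was the elongation factor Eef2 at -1.83 (-3.18 to -0.73), whose region overlaps 2 others. Actb (81 H3K79me3 and 78 H3K79me2 counts, -0.25) and Gapdh (87 and 89, -0.34) stayed under 200 counts and are not members. p53 targets and cell cycle inhibitors (8 of 20) had a median of -0.59 and 1 lower call (12.5%, against 9.42% of all members), Sesn2 (-1.28).

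The families taken by symbol are to be read against 7.6% of all members called higher and 9.42% called lower. Ribosomal protein genes (17 members of 85) had a median of -0.66 with 0 higher and 3 lower calls (17.6% lower), and proteasome subunit genes (22 of 45) had -0.48 with 0 and 3 (13.6% lower). Mitochondrial ribosomal protein genes (17 of 76) had -0.21 with 1 and 2 (5.88% and 11.8%). Zinc finger genes (148 of 363) had -0.27 with 6 and 22 (4.05% and 14.9%). Solute carrier genes (204 of 374) had 0.32, which became -0.26 with silent genes as the reference, and their 22 higher and 21 lower calls (10.8% and 10.3%) were close to the shares over all members. MicroRNA regions (16 of 1090) had -0.22 with 1 and 2 (6.25% and 12.5%), small nucleolar RNA genes (4 of 105) had -0.64 with 0 and 1 (25% lower), and both overlap host genes in many cases. Keratin and histone genes had 1 member each and defensin genes 0.

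All 42 long neural genes were members and all were above 0, 35 of them also with silent genes as the reference, with a median log2 ratio of 0.76 (0.18 with that reference) and 2 higher calls (4.76%, against 7.6% of all members). Ptprd, a neural receptor phosphatase with the most H3K79me3 counts of any gene in D544R (NM_011211, chromosome 4, 75585140 to 77857799), had 11134 H3K79me3 and 4154 H3K79me2 counts and a ratio of 1.11 (1.00 to 1.23). Cntnap2, a neuronal adhesion gene, had 9690 and 4636 counts and a ratio of 0.76 (0.64 to 0.87). Measured per kb, Ptprd stood at 1.14 times silent in H3K79me3 and 0.79 times in H3K79me2, and Cntnap2 at 1.01 and 0.894 times. Their large counts come from their length, and neither mark was dense over them.

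Vomeronasal receptor genes (50 members of 337) had a median of 0.88, the highest among lists with 4 or more members, with 24 higher and 0 lower calls (48.0% higher, against 7.6% of all members), up to Vmn2r48 (168 H3K79me3 and 39 H3K79me2 counts, 1.79, 0.71 to 2.96). Protocadherin genes (42 of 71) had 0.64 with 1 higher call (2.38%), silent genes of other tissues (11 of 48) 0.57 with 3 (27.3%), and interferon response genes (8 of 25) 0.49 with 1 (12.5%), Mx1 (177 and 41 counts, 1.79, 0.74 to 2.93). With silent genes as the reference, the medians of silent and interferon genes became -0.01 and -0.09, and with olfactory receptor genes that of protocadherin genes became -0.11. Olfactory receptor genes had only 2 members of 1122, and summed over all of them the log2 ratio was 0.75. Receptor and protocadherin genes have near-identical copies or overlapping regions, so the counts of single members are uncertain.

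**Figure D4:**
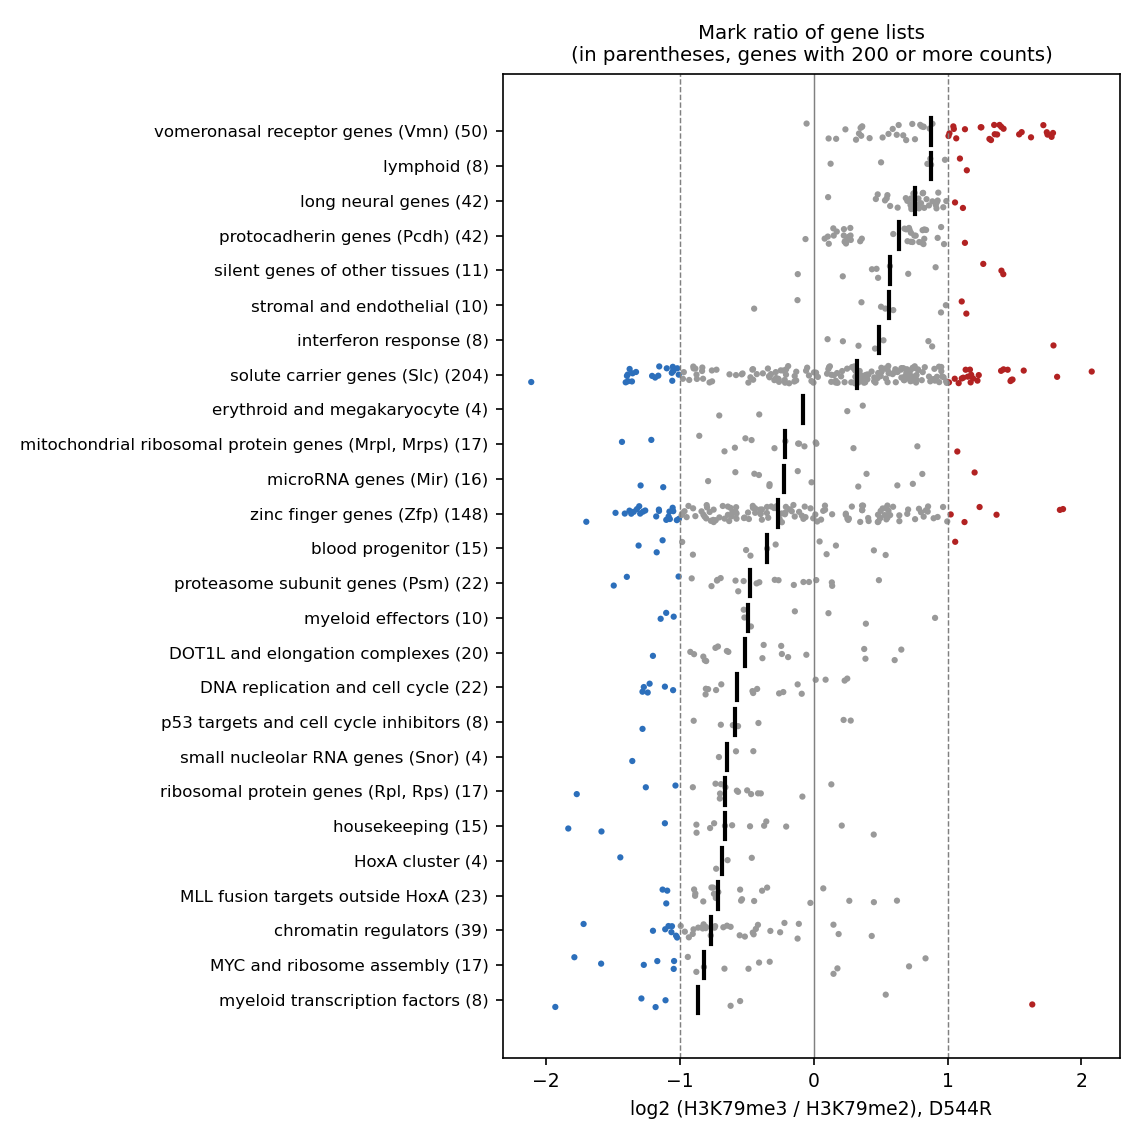
Log2 ratio of H3K79me3 to H3K79me2 in D544R (horizontal axis) for the members of each gene list with 4 or more members, lists ordered by median. Points are genes, red where called higher and blue where called lower, and black bars are medians, from 0.88 for vomeronasal receptor genes to -0.86 for myeloid transcription factors; dashed lines mark 2-fold.

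The same pair of marks was then read in the other genotypes, which share no library with D544R. H3K79me3 was called higher at 725 genes (7.6%) in D544R, 1123 of 10117 (11.1%) in D546R and 711 of 10611 (6.7%) in WT. It was called lower at 899 (9.42%), 2006 (19.8%) and 639 (6.02%) in that order. Over the D544R members the SD of the log2 ratio was 0.75 in D544R, 0.94 in D546R and 0.66 in WT. In the densest decile the medians were -0.75, -1.18 and -0.45, and in the thinnest 0.49, 0.56 and 0.11. D544R stood between D546R and WT in the densest decile and in the SD. Reads per fragment were also different, at 8.12, 18.6 and 9.73 in H3K79me3 and 3.26, 4.78 and 4.05 in H3K79me2, and their part in these values was not tested.

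Across the 9545 genes the D544R log2 ratio correlated with that in WT (r = 0.68, rho = 0.72) and with that in D546R (r = 0.61, rho = 0.65). At 1000 or more counts (2374 genes) r was 0.88 for WT and 0.86 for D546R. This is a description over genes that share libraries, antibodies and region lengths and are not independent. Of 615 higher genes measured in WT, 569 (92.5%) had the same sign there, with a median of 0.74, and 166 were called in both, which is 27.0% of the D544R and 36.4% of the WT calls. Of 890 lower genes, 853 (95.8%) had the same sign in WT, with a median of -0.73, and 233 were called in both, 26.2% of the D544R and 42.1% of the WT calls. In D546R, 459 of 537 higher genes (85.5%) and 809 of 857 lower genes (94.4%) had the same sign. Over all D544R members the median was -0.21 in D546R and -0.03 in WT. A negative sign was therefore the more common one there among all members, which favours agreement of the lower genes.

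The mark ratio itself was at least 2-fold higher in D544R than in WT at 305 of 9248 genes (3.3%) and at least 2-fold lower at 255 (2.76%). Asking that the fragment interval exclude no change left 198 and 159, and with olfactory receptor genes as the reference the counts were 196 and 450. The SD of the difference was 0.52. Among the 5251 genes with 1000 or more counts over the 4 libraries, 42 were higher and 48 lower.

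Among these genes of 1000 or more counts over the 4 libraries, Camk2b, a calcium-dependent kinase subunit of neurons, was furthest below WT, while genes with fewer counts reached larger differences. It had 194 H3K79me3 and 263 H3K79me2 counts in D544R, against 476 and 222 in WT, so its log2 ratio was -0.74 in D544R and 1.13 in WT, a difference of -1.88. The general transcription factor gene Gtf2b had 92 and 320 counts in D544R and 276 and 420 in WT, a difference of -1.53. For Spi1 the D544R counts of 182 and 562 stood against 371 and 524 in WT, a difference of -1.47. Snrnp48, a spliceosome gene, differed by -1.49, the proteasome gene Psmb2 by -1.47 and the survival gene Mcl1 by -1.43.

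On the other side, at the same minimum, stood Abhd3, a phospholipase gene, with 483 H3K79me3 and 129 H3K79me2 counts in D544R against 220 and 215 in WT, a difference of 1.53. Glyr1, a nucleosome-binding protein gene, differed by 1.48, with 361 and 257 counts in D544R against 173 and 437 in WT. Psd3 differed by 1.44, Loh12cr1 by 1.38 and Lrrtm3, a synaptic adhesion gene, by 1.30. Vcan, at the head of the higher genes, had log2 ratios of 1.75 in D544R, 0.03 in D546R and 0.94 in WT. With 1 library per genotype and mark, none of these differences could be tested.

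**Figure D5:**
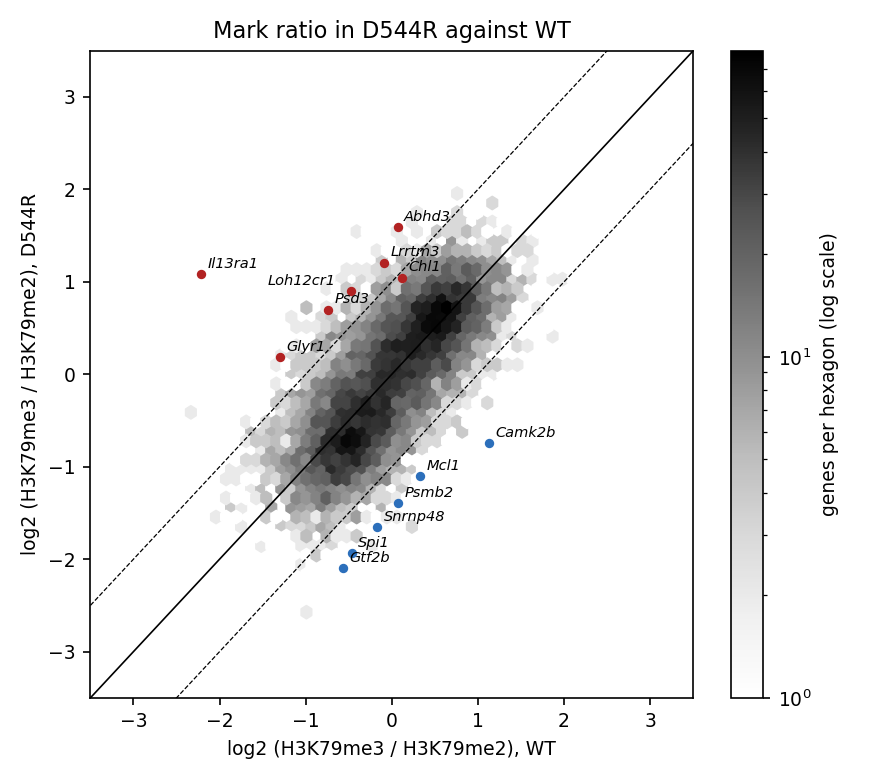
Log2 ratio of H3K79me3 to H3K79me2 in D544R (vertical axis) against WT (horizontal axis) for the 9248 genes with 200 or more counts in both pairs, shaded by the number of genes per hexagon on a log scale. The solid line marks equal ratios and the dashed lines a 2-fold difference; red and blue points are named genes of 1000 or more counts over the 4 libraries above and below, from Abhd3 (1.53 above) to Camk2b (1.88 below), with Il13ra1, which has fewer counts, and Chl1 added after their values were seen.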

How the data were processed

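The deposited values are raw counts of reads over gene regions in mm9, per the file headers, with a RefSeq identifier and coordinates and no strand, so the side of the 2 kb extension on minus-strand genes was not checked. Chromatin was sonicated to about 300 bp and several sequencing runs were combined per library, per the labels. Bowtie, bedtools, DESeq and mm9 are named in the submitters' processing notes. Their roles, versions and any removal of duplicate reads were not given in the sources used here.

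From these counts, size factors (median of ratios over the 2 D544R libraries, from 22922 genes), log2 ratios with a prior count of 0.5, exact conditional binomial (Clopper-Pearson) 95% intervals and counts per kb were computed with Python 3.11.15, pandas 2.3.3 and scipy 1.17.1. A count of 0 would allow up to 3 counts. The interval of a difference between genotypes sums the variances of log counts. With 1 library per group no p-value was computed, and edgeR 4.0.16 was used only for TMM factors.

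Members and the 32 gene lists were chosen with earlier results of these data known, and 6 symbols matched under another name. Named genes are the 12 highest and 12 lowest past the 2-fold rule at 1000 or more counts, leaving out predicted models, Mir, Snor and histone names, the highest and lowest member of each list, fixed genes, and the 6 most different from WT each way among genes with 1000 or more counts over the 4 libraries. A few genes that the rule names are not reported here. Others were chosen after their values were seen. Alternatives were other scalings, filters, folds, priors and rankings, fragment intervals, autosomes and non-overlapping regions. The olfactory receptor reference was chosen after seeing the data.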

Additional observations from a re-analysis of the deposited data

Results flagged for a closer look

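In 3 genes the mark ratio was called in opposite directions in D544R and WT. The difference between D544R and WT was not tested, since each ratio comes from 1 library per mark. Plscr2, a scramblase family gene, had 158 H3K79me3 and 59 H3K79me2 counts in D544R against 86 and 180 in WT, a difference of 2.135. Ccdc66, a coiled-coil protein gene whose region overlaps 1 other, had 264 and 90 counts in D544R against 63 and 161 in WT, a difference of 2.55. Il13ra1, a receptor chain for interleukin 13 on the X chromosome, had 224 and 85 counts in D544R against 39 and 187 in WT, a difference of 3.30. All 3 were higher in D544R. Their H3K79me3 counts of 39 to 264 stand for few independent fragments, at 8.12 reads per fragment in D544R and 9.73 in WT.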

How the results depend on the processing

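No paired analysis was possible because the labels give no replicate numbers and each group is 1 library. The reported counts were 725 higher and 899 lower, with medians of -0.75 (densest decile), 0.49 (thinnest decile), 0.58 (200 kb or more) and -0.58 (under 5 kb), and 305 higher and 255 lower against WT. Under TMM factors, a prior of 5 and autosomes only, all of these stayed within the limits for no change. Total counts gave -0.73 (densest) and 0.60 (200 kb or more), and size factors over all 6 libraries -0.72 and 0.61. With silent genes as the reference there were 87 higher and 3068 lower genes, and the medians were -1.33 (densest), -0.0898 (thinnest), -0.0045 (200 kb or more) and -1.16 (under 5 kb). With olfactory receptor genes there were 52 and 3707, the medians were -1.50, -0.26, -0.17 and -1.33, and 196 and 450 genes differed from WT. The list medians then changed sign for interferon (-0.0897 and -0.26 with the 2 references), silent (-0.0118 and -0.18), keratin (-0.0172 and -0.19) and solute carrier genes (-0.26 and -0.43), and with olfactory receptor genes for protocadherin genes (-0.11). These references shift every ratio by a constant, -0.58 and -0.75. Regions that overlap no other gave 489 lower genes, 0.47 under 5 kb (4 genes), and 199 higher and 143 lower against WT, from 5842 genes. A minimum of 1000 counts gave 72 and 178, -0.72 (densest), 0.62 (thinnest), and 4 and 3 against WT. No minimum gave 3051 and 4120, -0.15 (thinnest), -0.29 (under 5 kb), -0.67 for histone genes, and 2909 and 2886 against WT; the cause of these sign changes was not tested. At 1.5-fold there were 2353 and 2437 genes, and 1056 and 1078 against WT; at 4-fold 25 and 21, and 11 and 2. Fragment intervals gave 198 and 159 against WT. Ranking in other libraries gave 0.68 (thinnest; WT H3K79me2), -0.71 and 0.31 (densest and thinnest; WT H3K79me3), and -0.79 and 0.56 (D546R). Of the alternatives of single genes, 606 stayed within the interval of the gene and 216 moved past it. Of those of lists, 222 stayed, 56 moved and 10 changed sign. Sign changes were counted only for lists whose own interval excluded 0, so those of stromal and endothelial genes are not among the 10.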
